A study of Homo sapiens with 36 samples.

Results

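In bulk RNA libraries of a pair of HEK293 clones, 32 of 36601 genes were read at 3 CPM or more in all 6 clone 4 libraries and under 0.5 CPM in all 6 clone 5 libraries. The genes were selected on these measured values, so their difference between the clones is a description and carries no test. LIN28A, VEGFC, SEMA3D, RELN and SEMA6D also met both limits and were left out by name or by gene family, from 37 in all. With the clones exchanged, the same limits and the same omissions give 22 genes. CPM is the count of a gene divided by the summed count of all genes in the library and multiplied by 1000000, so it is not corrected for gene length and levels are not compared between genes. Reads of every one of the 32 genes were found in clone 5, in sums of 3 to 54 over its 6 libraries, and whether these reads come from clone 5 cells was not tested.

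HEK293 is a long-established human cell line that came from embryonic kidney. In the study an endogenous protein is fused to HaloTag, a tag that binds its ligands covalently, and the hydrophobic ligand HyT36 (25 µM) is meant to make the tagged protein misfold, with DMSO as the vehicle. The 4 groups are clone 4 with HyT36, clone 4 with DMSO, clone 5 with HyT36 and clone 5 with DMSO, with 3 libraries each, and the labels place both clones in the tagged library of cells. Each line is 1 clone, so a difference between clone 4 and clone 5 cannot be told apart from a difference between any 2 clones of this line. Exposures of 2 and 12 h stand in the treatment protocol. For the bulk libraries the sources used here name neither the exposure time nor the protein tagged in each clone.

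Gene counts per library lay between 22853946 and 28635511, so 3 CPM stood for 68.6 to 85.9 reads and 0.5 CPM for 11.4 to 14.3 reads. Reads of a guide named for HDAC2 numbered 2318 to 3504 in the clone 4 libraries and 2 to 18 in those of clone 5. Reads of a guide named for IGF1R numbered 5 to 13 in clone 4 and 2623 to 3806 in clone 5, and those of a guide named for LRIG1 were 0 in clone 4 and 107 to 140 in clone 5. The libraries of the clones thus held different guides. Of 6 genes listed as marks of HEK293, LIN28B, PAX2 and INA were read in every library while NEFL, NEFM and NEFH stood at or near 0, and the summed level of the list was 163 to 178 CPM in clone 4 and 145 to 165 CPM in clone 5. The 6 libraries clone 4 HyT36 2 and 3, clone 4 DMSO 1 and all 3 clone 5 DMSO libraries held many transcripts of an epithelial list of 12 genes, all 12 of them found. KRT19, a keratin of simple epithelia, was at 33.0 to 70.5 CPM in these 6 libraries and at 0.0419 to 0.231 CPM in the others. Not every gene of the list split this way. In clone 5 DMSO 3, KRT18 was at 19.7 CPM and CDH1 at 0.297 CPM. Both lay below every clone 5 HyT36 library (20.5 to 23.4 CPM and 0.503 to 0.569 CPM). CLDN7 was at 2.63 to 3.81 CPM in clone 5 with HyT36, above its 1.28 to 2.09 CPM in the clone 4 libraries with much KRT19. The summed list was at 44.3 to 136 CPM in clone 4 with HyT36, 46.5 to 267 CPM in clone 4 with DMSO, 67.6 to 77.8 CPM in clone 5 with HyT36 and 131 to 174 CPM in clone 5 with DMSO. GRHL2 was at 0 in the 6 libraries with little KRT19, and EPCAM at 0 in clone 5 HyT36 3. In clone 5 all DMSO libraries and no HyT36 library held many of these transcripts, so there the ligand and the epithelial transcripts cannot be told apart. In bulk RNA, fewer cells that transcribe a gene and less of its RNA per cell cannot be told apart either.

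The 32 genes are described by role, and no theme was tested over them. As background, adhesion proteins at the cell surface let cells recognise each other, glycosyltransferases build the sugar chains such proteins carry, secreted antagonists and proteases limit growth signals, and transcription factors and corepressors set which genes a cell reads. Of the 32, 29 are protein coding in RefSeq, and 3 are noncoding or of uncertain coding status.

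The secreted proteins, enzymes and receptors number 6. BCHE encodes butyrylcholinesterase, which hydrolyses choline esters (ENSG00000114200, chromosome 3, 165772904 to 165837423, GRCh38.p14, as for all positions below). In clone 4 it was at 13.8, 13.7 and 13.2 CPM with HyT36 and at 14.3, 13.3 and 12.6 CPM with DMSO. In clone 5 it had 2, 5 and 1 reads with HyT36 and 3, 2 and 2 with DMSO. The clone 4 libraries held 2111 reads and the clone 5 libraries 15, a ratio of CPM of 132 (exact 95% binomial interval 79.9 to 236, counting error only, as for all such intervals). CHRDL1, a secreted antagonist of bone morphogenetic proteins (chromosome X, 110673856 to 110795817), was at 11.9, 12.0 and 11.4 CPM in clone 4 with HyT36 and at 11.3, 11.3 and 10.6 CPM with DMSO. In clone 5 it had 3, 1 and 6 reads with HyT36 and 1, 10 and 10 with DMSO, and the ratio of the clones was 54.3 (38.1 to 80.2). Both genes were steady in clone 4, with a highest over lowest library of 1.14 each.

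LPL, the lipoprotein lipase that releases fatty acids from circulating triglycerides (chromosome 8, 19939253 to 19967259), was at 7.58, 6.55 and 7.47 CPM in clone 4 with HyT36 and at 6.75, 6.69 and 6.88 CPM with DMSO. It had 11 reads in all in clone 5, 8 of them in DMSO 2 and 3, and 0 in 3 clone 5 libraries. ADAMTS9, a secreted metalloprotease that cuts proteoglycans of the matrix, averaged 6.08 ± 0.901 CPM in clone 4 (SD, n = 6, as for the means below). FLT1, a receptor of vascular endothelial growth factors, averaged 3.91 ± 0.396 CPM, and CNTFR, the receptor subunit that binds ciliary neurotrophic factor, 3.73 ± 0.352 CPM. CNTFR was among the genes with the most reads left in clone 5, with 43 reads and a clone 4 to clone 5 ratio of 12.7 (9.31 to 17.7).

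The membrane, adhesion and glycosylation genes number 8. CYYR1, a membrane protein rich in cysteine and tyrosine (chromosome 21, 26466216 to 26573286), had the highest CPM of the 32, at 21.7, 21.5 and 20.2 CPM in clone 4 with HyT36 and at 20.4, 20.03 and 23.3 CPM with DMSO. Its 3316 reads in clone 4 stood against 13 in clone 5, a ratio of 239 (140 to 450). GALNT13, an enzyme that starts mucin-type sugar chains (chromosome 2, 153068293 to 154456574), was at 9.92, 10.9 and 11.9 CPM in clone 4 with HyT36 and at 8.84, 9.76 and 12.1 CPM with DMSO. Its clone 5 level ran from 0.0756 to 0.461 CPM, close to the upper limit of the selection. ST8SIA2, a transferase that builds polysialic acid on neural adhesion proteins (chromosome 15, 92393881 to 92468728), was at 8.84, 8.94 and 8.26 CPM in clone 4 with HyT36 and at 7.47, 6.996 and 7.41 CPM with DMSO. The 2 treatments of ST8SIA2 did not overlap in clone 4.

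NEGR1, an adhesion protein of neurons held to the membrane by a lipid anchor, had 1221 reads in clone 4 and 5 in clone 5, a ratio of 229 (97.9 to 707). NCAM2, a neural cell adhesion molecule (chromosome 21, 20998409 to 21543329), was at 5.10, 5.58 and 4.37 CPM in clone 4 with HyT36 and at 5.81, 4.31 and 4.65 CPM with DMSO. TMEM200A, a membrane protein, was at 3.70, 4.49 and 4.71 CPM in clone 4 with HyT36 and at 3.03, 3.84 and 4.74 CPM with DMSO, a spread of 1.56-fold. TRO, an adhesion protein of the MAGE family first described in the attachment of embryos, averaged 3.94 ± 0.420 CPM. SYT11, a vesicle protein, was at 3.42, 4.13 and 3.58 CPM in clone 4 with HyT36 and at 4.95, 3.65 and 3.13 CPM with DMSO, and its 54 reads in clone 5 gave the lowest ratio of the 32 (10.3, interval 7.80 to 13.9).

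The transcription and chromatin genes number 9. NAP1L2, a histone chaperone of neurons (chromosome X, 73212299 to 73214851), was at 12.0, 12.4 and 11.6 CPM in clone 4 with HyT36 and at 11.1, 13.5 and 12.7 CPM with DMSO, with 1912 reads in clone 4 and 17 in clone 5. RUNX1T1, a corepressor that a chromosome exchange joins to RUNX1 in leukaemia (chromosome 8, 91954967 to 92103385), was at 10.2, 9.16 and 9.80 CPM in clone 4 with HyT36 and at 10.7, 9.03 and 8.81 CPM with DMSO. ZNF660, a zinc finger gene (chromosome 3, 44584964 to 44599694), was at 8.45, 8.47 and 7.77 CPM in clone 4 with HyT36 and at 8.54, 7.30 and 7.12 CPM with DMSO. ETV1, a transcription factor of the ETS family, averaged 7.75 ± 0.576 CPM, and TOX, a DNA-binding protein known from T cell development, 5.40 ± 0.601 CPM. MDFIC, which binds and regulates other transcription factors, had 792 reads in clone 4 and 30 in clone 5. PRDM16, a zinc finger protein known from brown fat, averaged 4.98 ± 0.432 CPM and PRDM6, a relative known from smooth muscle, 3.92 ± 0.670 CPM. ZBTB47, another zinc finger gene, had 48 reads in clone 5 and a ratio of 11.5 (8.57 to 15.8).

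Intracellular enzymes and regulators number 6. GHDC (chromosome 17, 42189087 to 42194494) was at 16.4, 18.1 and 16.2 CPM in clone 4 with HyT36 and at 18.02, 17.3 and 16.5 CPM with DMSO, the smallest spread of the 32 (1.12-fold). PPP2R2B, a regulatory subunit of protein phosphatase 2A (chromosome 5, 146580742 to 147081520), was at 9.25, 10.7 and 10.9 CPM in clone 4 with HyT36 and at 9.10, 11.6 and 11.04 CPM with DMSO. MAP2, a microtubule protein of dendrites (chromosome 2, 209424047 to 209734112), was at 4.33, 4.16 and 4.68 CPM in clone 4 with HyT36 and at 5.77, 3.88 and 4.98 CPM with DMSO. CCND2, the cell cycle regulator cyclin D2, averaged 3.99 ± 0.278 CPM. ADPRH, which removes ADP-ribose from arginine, had 596 reads in clone 4 and 3 in clone 5, a ratio of 186 with a wide interval (63.5 to 906). CA8, a carbonic anhydrase relative without that activity, averaged 3.80 ± 0.266 CPM.

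The last 3 are noncoding genes or of uncertain coding status. MAGI2-AS3, a long noncoding RNA (chromosome 7, 79452957 to 79471208), was at 11.3, 11.3 and 10.7 CPM in clone 4 with HyT36 and at 11.1, 9.88 and 11.3 CPM with DMSO. DUXAP8, a pseudogene with close copies, was at 10.8, 10.5 and 10.6 CPM in clone 4 with HyT36 and at 12.4, 10.5 and 10.5 CPM with DMSO, and C2orf27A, which RefSeq holds as the noncoding LINC03124, at 5.34, 4.92 and 5.69 CPM with HyT36 and at 6.58, 5.61 and 6.51 CPM with DMSO. Reads of DUXAP8 and C2orf27A may be shared with near-identical copies, so their levels are uncertain.

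**Figure D1:**
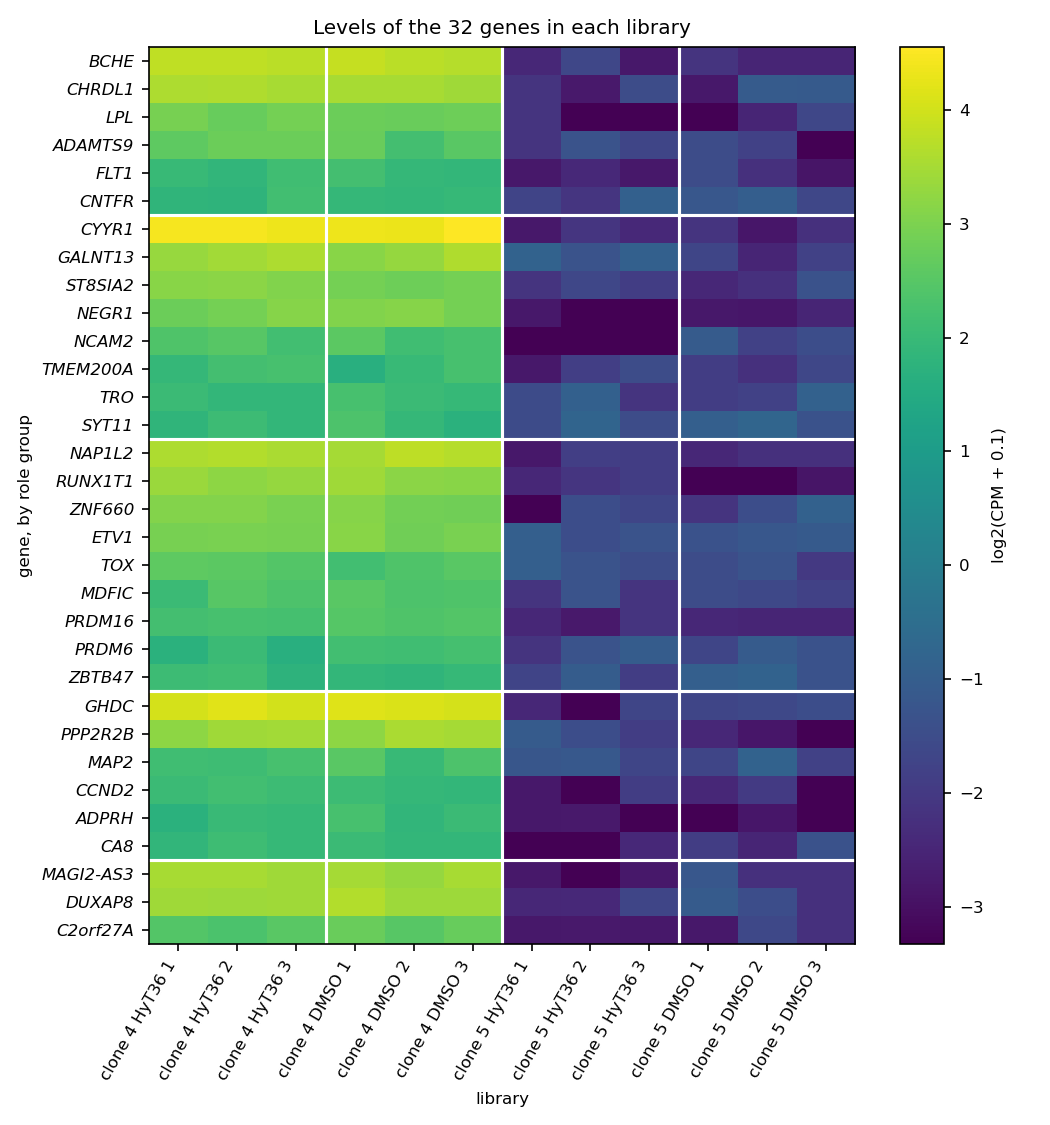
Level of each of the 32 genes (rows, grouped by role) in each of the 12 libraries (columns), as log2(CPM + 0.1) on a colour scale. The selection fixes the step between the 6 clone 4 libraries on the left and the 6 clone 5 libraries on the right, while the 3 libraries within each group differ little in clone 4.

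Other genes lay close outside each limit of the selection. The genes nearest to the clone 4 limit were PRDM6, TMEM200A and SYT11, with lowest clone 4 libraries at 3.02, 3.03 and 3.13 CPM, and just outside it stood UCP1, CGAS and DMKN at 2.75, 2.69 and 2.69 CPM. Nearest to the clone 5 limit were SYT11, GALNT13 and, tied, MAP2 and ZBTB47, with highest clone 5 libraries at 0.492, 0.461 and 0.454 CPM. Just outside stood CPXM1 at 0.517 CPM and CCDC80 and HAPLN3 at 0.520 CPM each. Over the 32 genes the ratio of the clones ran from 10.3 to 239 with a median of 44.0, with 8 genes at 100-fold or more and 7 under 20-fold. Of all 14892 genes tested by edgeR, 33.9% passed the adjusted p threshold of 0.05 as higher in clone 4 and 32.7% as lower.

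The share of HDAC2 guide reads found in clone 5 is set beside that of the 32 genes. Where either kind of read came from was not tested, nor whether guides and genes behave alike. Over the 6 libraries it stood in clone 5 at 0.395% of its clone 4 level. The 32 genes stood in clone 5 at 0.418 to 9.69% of their clone 4 level, with a median of 2.28%. The exact 95% intervals of 28 genes lay above the share of the guide, and those of CYYR1 (0.418%), NEGR1 (0.436%), ADPRH (0.536%) and RUNX1T1 (0.709%) spanned it. The share of the guide was taken as exact here, although it rests on 2 to 18 reads per clone 5 library. With HyT36 alone the guide stood at 0.200% and NCAM2 and NEGR1 at or below it, and with DMSO alone the guide stood at 0.574% and ADPRH, CYYR1, PPP2R2B and RUNX1T1 below it. The summed CPM of the 32 genes was 238, 247 and 241 in clone 4 with HyT36, 249, 234 and 243 in clone 4 with DMSO, 4.48, 5.51 and 5.42 in clone 5 with HyT36 and 5.92, 6.24 and 5.86 in clone 5 with DMSO. The clone 5 DMSO libraries, which also held 16, 16 and 18 reads of the HDAC2 guide, were above the clone 5 HyT36 libraries, which held 9, 5 and 2.

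The starts of the genes differed widely in CG content. CG dinucleotides, the letters at which DNA is methylated, are dense at the starts of most genes that are transcribed in all tissues and sparse at many tissue-restricted ones. Promoters of 300 bases (250 before to 50 after the start, RefSeq, GRCh38.p14) were at hand for 21 of the 32 genes. RefSeq's start lay within 1 kb of the outer bound of the gene for 17 of them and further inside for CNTFR (1.1 kb), PPP2R2B (25.6 kb), NCAM2 (148.8 kb) and MAP2 (237.4 kb), so for these 4 the window is that of an internal start. They are shown for the 2 genes with the most and the 2 with the fewest CG pairs, 5′ to 3′ on the strand of the gene, with each CG in capitals. CNTFR (chr9:34589675-34589974, minus strand) held 48 CG pairs and CHRDL1 (chrX:110795768-110796067, minus strand) 36, against 1 in GALNT13 (chr2:153068043-153068342, plus strand) and 2 in BCHE (chr3:165837374-165837673, minus strand).
CNTFR: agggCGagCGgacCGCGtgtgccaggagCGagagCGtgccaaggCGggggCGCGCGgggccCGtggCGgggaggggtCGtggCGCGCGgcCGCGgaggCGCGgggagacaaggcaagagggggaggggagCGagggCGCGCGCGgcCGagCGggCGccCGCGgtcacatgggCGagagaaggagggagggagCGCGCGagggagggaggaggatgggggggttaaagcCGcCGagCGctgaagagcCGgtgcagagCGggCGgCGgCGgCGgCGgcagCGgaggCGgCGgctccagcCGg
CHRDL1: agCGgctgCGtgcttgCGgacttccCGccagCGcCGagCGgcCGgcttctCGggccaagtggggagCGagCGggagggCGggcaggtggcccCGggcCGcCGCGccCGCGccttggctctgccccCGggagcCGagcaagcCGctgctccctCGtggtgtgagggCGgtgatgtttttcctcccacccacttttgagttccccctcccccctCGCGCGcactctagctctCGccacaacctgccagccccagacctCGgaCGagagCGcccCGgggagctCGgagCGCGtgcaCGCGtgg
GALNT13: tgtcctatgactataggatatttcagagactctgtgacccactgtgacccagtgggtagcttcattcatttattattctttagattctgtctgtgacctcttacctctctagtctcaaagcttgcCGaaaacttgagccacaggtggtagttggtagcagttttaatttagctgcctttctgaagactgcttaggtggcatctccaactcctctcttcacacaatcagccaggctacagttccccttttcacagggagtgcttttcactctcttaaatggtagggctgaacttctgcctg
BCHE: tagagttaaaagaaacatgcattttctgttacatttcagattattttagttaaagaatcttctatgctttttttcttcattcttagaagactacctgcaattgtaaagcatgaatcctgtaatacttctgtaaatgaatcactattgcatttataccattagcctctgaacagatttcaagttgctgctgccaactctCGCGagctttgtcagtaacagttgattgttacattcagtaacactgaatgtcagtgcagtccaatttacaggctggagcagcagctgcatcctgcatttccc

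The 21 promoters held a median of 15 CG pairs, from 1 to 48, and the 17 near the outer bound also a median of 15. Among 2529 genes at 3 CPM or more in all 12 libraries and with a mean CPM within the range of the 32 genes, the median was 26, and over all 27305 promoters it was 14. Counting as CG-dense a promoter with over 50% G or C and with CG pairs at over 0.6 of the number its base content gives, 10 of the 21 (47.6%) and 8 of the 17 (47.1%) were dense, against 81.1% of the 2529 and 46.8% of all promoters. For the 16 promoters of the genes found with the clones exchanged, the median was 5 and 31.2% were dense. Sparse promoters included those of PPP2R2B, MAP2 and TRO (5 CG pairs each), NAP1L2 and GHDC (7 each) and CYYR1 (9). The letters TATAAA, on either strand, stood in 2 of the 21 (9.52%), BCHE and FLT1, against 4.55% of the 2529 promoters and 12.0% of all. Base content and gene class differ between these sets, and none of these shares was tested.

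**Figure D2:**
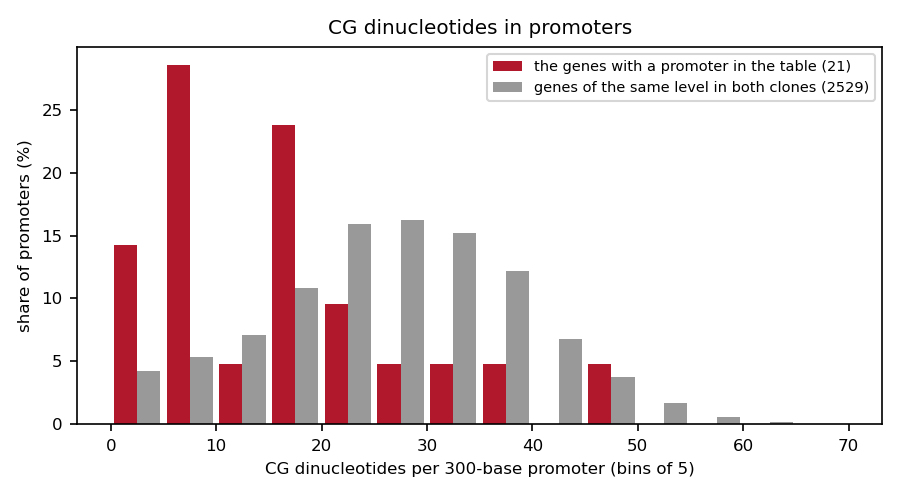
Share of promoters (vertical axis, percent) by the number of CG pairs in 300 bases (horizontal axis, bins of 5), for the 21 genes with a promoter at hand (red) and for 2529 genes of the same range of levels expressed in both clones (grey). The red bars lie mostly at low counts, with a median of 15, and the grey bars centre on a median of 26.

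No response of the 32 genes to the ligand was called in clone 4. The selection asked 3 CPM or more of every clone 4 library with either treatment, so a gene that dropped below it with one treatment could not be chosen, and the count is a description of genes that stay above it. Of the 32, 0 passed an adjusted p of 0.05 (edgeR quasi-likelihood test, Benjamini-Hochberg over 14892 genes), where 5.57% of all genes tested passed, and 0 had an unadjusted p under 0.05. The same count was 0 by DESeq2, which gave an adjusted p to 10 of them, and 0 by limma-voom, with 0 and 2 genes at an unadjusted p under 0.05. The log2 fold changes of HyT36 over DMSO ran from -0.36 to 0.28, with a median of 0.03, against 0.00 for all genes tested, and their median size was 0.10, against 0.09.

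The largest of these changes were small. ST8SIA2 averaged 8.68 ± 0.369 CPM in clone 4 with HyT36 and 7.29 ± 0.260 CPM with DMSO (SD, n = 3 each), a log2 fold change of 0.28 ± 0.14 (SE, edgeR adjusted p = 0.29). PRDM6 was at 3.18, 3.98 and 3.02 CPM with HyT36 and at 4.44, 4.27 and 4.61 CPM with DMSO (-0.36 ± 0.20, edgeR adjusted p = 0.329). In 4 of the 32 genes (12.5%) the 2 treatments did not overlap in clone 4, against 28.0% of the 10665 other genes at 3 CPM or more in all clone 4 libraries, which were not matched in level. ST8SIA2 and CHRDL1 were higher in each HyT36 library, and PRDM6 and PRDM16 lower. PRDM16 averaged 4.61 ± 0.122 CPM with HyT36 and 5.35 ± 0.183 CPM with DMSO (-0.19 ± 0.16, edgeR adjusted p = 0.586). CYYR1, the gene with the most reads, had a log2 fold change of 0.02 ± 0.08 and GHDC of 0.00 ± 0.10.

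**Figure D3:**
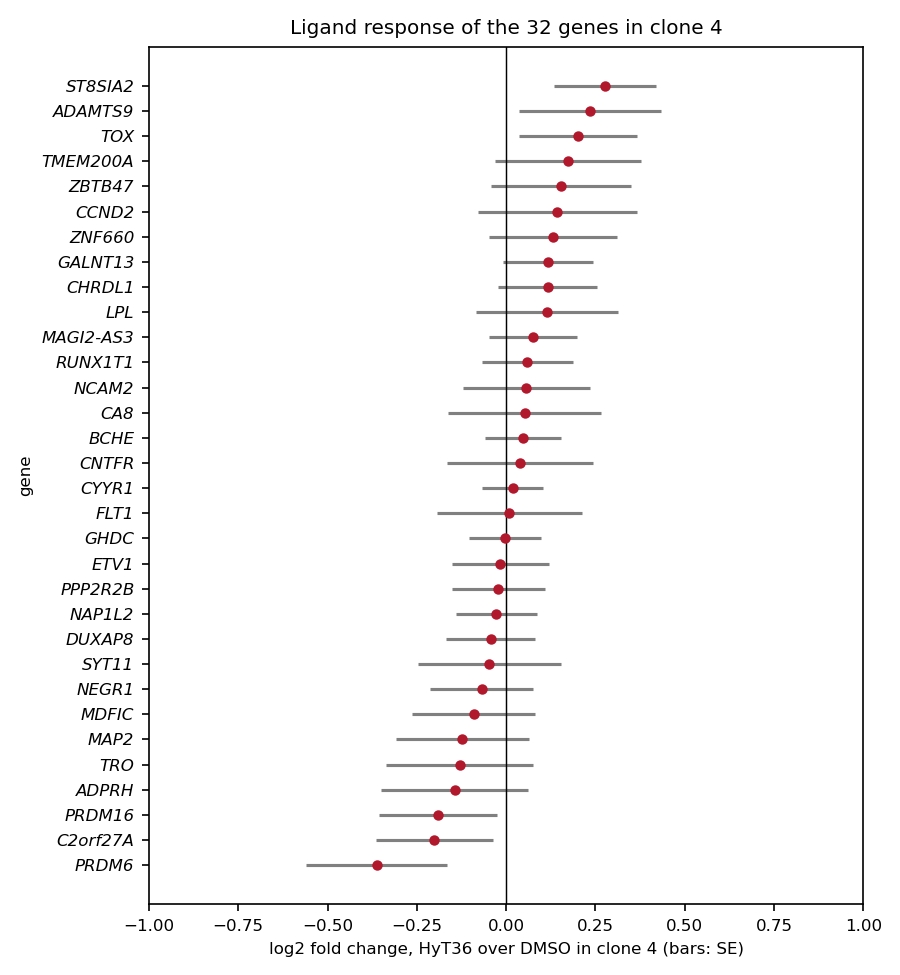
Ligand response of each of the 32 genes in clone 4 as the log2 fold change of HyT36 over DMSO (points) with its SE (bars), from the fit over all 12 libraries. All points lie between -0.36 (PRDM6) and 0.28 (ST8SIA2).

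Within clone 4 the spread of the genes over libraries was set beside that of other genes in their range of mean CPM. The highest clone 4 library was 1.12 to 1.58 times the lowest, with a median of 1.28, and all 32 stayed under 2-fold. For 3505 other genes in the same range of mean CPM, not matched in level within it, the median was 1.26 and 3457 stayed under 2-fold. The widest were SYT11 (1.58), TMEM200A (1.56) and PRDM6 (1.53), which are also among the genes with the fewest reads, and the narrowest were GHDC (1.12), BCHE (1.14) and CHRDL1 (1.14). The median coefficient of variation was 9.90%, where counting alone gives 8.06%. For the 3505 genes these values were 8.78% and 5.91%, so the sets differ in reads. Clone 4 DMSO 1 was the highest clone 4 library for 14 of the 32 genes and the lowest for 5. How often it was so for other genes was not counted, so nothing is read from these numbers. This library held the most epithelial transcripts (267 CPM) and differed most from its replicates (chi-square per degree of freedom 8.71 and 7.47). ADAMTS9, CCND2 and CA8 were higher in each of the 3 clone 4 libraries rich in epithelial transcripts than in each of the other 3, 9.38% of the 32 genes against 6.13% of the 3505, and 0 were lower in each, against 3.11%. CCND2, for example, was at 4.38 and 4.07 CPM in HyT36 2 and 3 and 4.14 CPM in DMSO 1, against 4.02 CPM in HyT36 1 and 3.73 and 3.62 CPM in DMSO 2 and 3. The part of the epithelial transcripts in these differences was not tested.

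In clone 5 the test called 6 of the 32 genes (18.8%), and 7 had an unadjusted p under 0.05. Of all genes tested 8.19% passed. The 32 genes, however, were chosen to be near 0 in clone 5 and entered the test through their clone 4 counts. The shares are thus not comparable and nothing is read from them. The calls of single genes below depend on that entry too, with the spread estimated over all 12 libraries, and are given as descriptions. PPP2R2B had 9, 6 and 4 reads in clone 5 with HyT36 and 2, 1 and 0 with DMSO, 6.96 times the CPM (2.05 to 36.7; log2 fold change 2.67 ± 0.61, edgeR adjusted p = 0.00407). RUNX1T1 had 2, 3 and 4 reads with HyT36 and 0, 0 and 1 with DMSO (2.91 ± 0.81, edgeR adjusted p = 0.0496). GALNT13 had 11, 7 and 10 reads with HyT36 and 5, 2 and 5 with DMSO (1.35 ± 0.41, edgeR adjusted p = 0.046).

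Lower with HyT36 in clone 5 were NCAM2, MAGI2-AS3 and CA8. NCAM2 had 0 reads in all 3 HyT36 libraries and 9, 5 and 7 with DMSO (edgeR adjusted p = 4.78e-05), at least 6.37-fold lower with the ligand when 3 reads over the HyT36 group are taken as the floor and the DMSO reads as exact, or 4.74-fold at the limit of the exact 95% interval. MAGI2-AS3 had 1, 0 and 1 reads with HyT36 and 8, 3 and 3 with DMSO (-2.46 ± 0.69, edgeR adjusted p = 0.0395). CA8 had 0, 0 and 2 reads with HyT36 and 4, 2 and 8 with DMSO (-2.46 ± 0.75, edgeR adjusted p = 0.0395), and its treatments overlapped at 2 reads. These calls rest on 10 to 40 reads a gene in clone 5, and the DMSO libraries there were the ones rich in epithelial transcripts. Fitted to the 6 clone 5 libraries alone, 1 of the 32 genes, not among those called above, passed the filter on low counts and 0 were called. The call of NCAM2 held without each library in turn, and each of the other 5 genes lost its call without at least 1 library, with adjusted p (edgeR, DESeq2 or limma) of up to 0.0625 for PPP2R2B, 0.474 for MAGI2-AS3 and CA8, 0.542 for RUNX1T1 and 0.608 for GALNT13 over all alternatives.

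**Figure D4:**
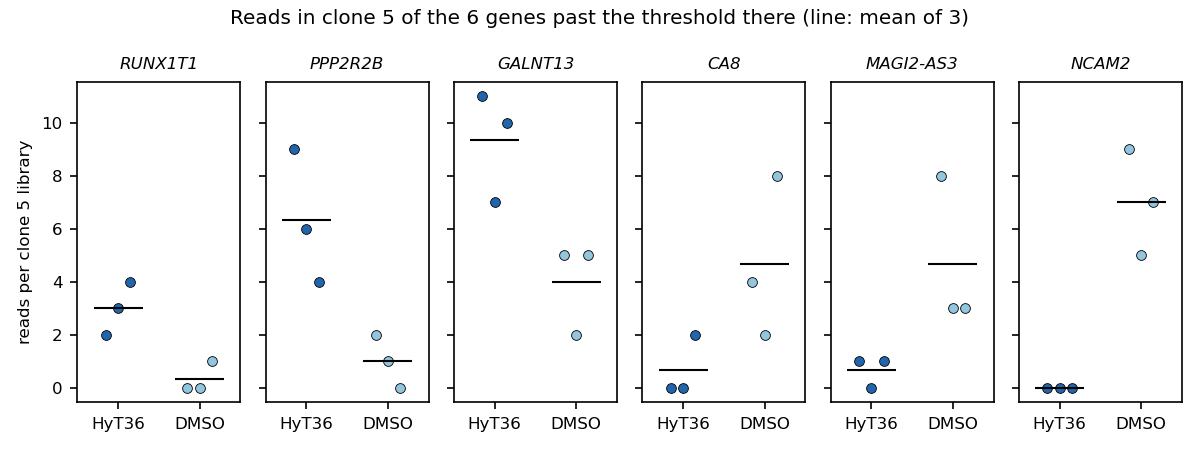
Reads per clone 5 library (vertical axis) of the 6 genes past the threshold in clone 5, with HyT36 (dark, left) and DMSO (light, right), 3 libraries each and a line at their mean. No library exceeds 11 reads, and NCAM2 has 0 in all 3 HyT36 libraries.

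The test of the difference between the clones' responses called 2 of the 32 genes (6.25%), and 0.302% of all genes tested. These shares are not comparable either, since the clone 5 side rests on 21 reads of NCAM2 and 22 of PPP2R2B in genes chosen to be near 0 there. NCAM2 had 5.02 ± 0.606 CPM with HyT36 and 4.92 ± 0.786 CPM with DMSO in clone 4, a log2 fold change of 0.06 ± 0.18, while in clone 5 it was read only with DMSO. Its difference, clone 4 response minus clone 5 response, was 5.84 ± 0.97 on the log2 scale (edgeR adjusted p = 0.00132), a fitted size that depends on the count added to 0. PPP2R2B had 10.3 ± 0.893 CPM with HyT36 and 10.6 ± 1.33 CPM with DMSO in clone 4, and its difference was -2.69 ± 0.62 (edgeR adjusted p = 0.0408, and from 0.0172 to 0.292 over the alternatives, with the call lost in 11 of 18). For the other 4 genes called in clone 5 the difference did not pass, with edgeR adjusted p from 0.224 (MAGI2-AS3) to 0.375 (GALNT13).

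Relatives and partners of the 32 genes were looked up from a list written by family or known binding, after the 32 were known. Of 117 such genes that were found, 89 were tested, of which 37 (41.6%) were higher in clone 4, 28 (31.5%) lower and 24 not called (all genes tested other than the 32: 33.8% higher and 32.8% lower). Some relatives lay the other way from the selected gene. PPP2R2C, another regulatory subunit of the phosphatase that PPP2R2B belongs to, averaged 7.98 CPM in clone 4 and 51.0 CPM in clone 5 (log2 -2.63 ± 0.05, edgeR adjusted p = 1.5e-35). ST8SIA4, the other polysialic acid transferase, averaged 1.86 CPM in clone 4 and 10.1 CPM in clone 5 (-2.39 ± 0.11, edgeR adjusted p = 2.4e-21). SYT1, a synaptotagmin like SYT11, averaged 0.827 CPM in clone 4 and 5.91 CPM in clone 5 (-2.82 ± 0.22, edgeR adjusted p = 5.6e-09).

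Further relatives lower in clone 4 were ADPRHL1 (6.03 against 17.8 CPM in clone 5), MAGED1 (181 against 392 CPM), MAP1B (255 against 382 CPM), GALNT6 (6.78 against 16.7 CPM) and RUNX1, which RUNX1T1 is joined to in leukaemia (10.4 against 20.3 CPM). LMF1, needed for the folding of LPL, was at 2.30 CPM in clone 4 and 5.26 CPM in clone 5 (-1.15 ± 0.12), and GPIHBP1, which carries LPL across capillaries, was listed at 0 in both clones. Relatives higher in clone 4 included MAP1A, a microtubule protein like MAP2 (16.7 against 2.86 CPM in clone 5; 2.58 ± 0.08, edgeR adjusted p = 3.5e-27), ST8SIA5 (2.53 against 0.464 CPM) and TMEM200B (4.32 against 1.46 CPM). ETV4, an ETS factor of the same subfamily as ETV1, was at 2.86 CPM in clone 4 and 1.28 CPM in clone 5. CNTF, the ligand of CNTFR, had 433 reads in clone 4 and 2 in clone 5. RefSeq holds a read-through transcript of CNTF with ZFP91, so reads of the 2 genes may not be told apart. IL6ST, the signalling subunit that CNTFR works with, was higher by a log2 difference of 0.24 ± 0.05, and LIFR, its other subunit, was not called (0.04 ± 0.05). For FLT1, the ligand PGF was at 3.95 CPM in clone 4 and 2.01 CPM in clone 5 and the coreceptor NRP1 at 54.4 CPM in clone 4 and 34.5 CPM in clone 5, while NRP2, the other coreceptor, was lower in clone 4 (6.97 CPM, against 12.7 CPM in clone 5; log2 -0.83 ± 0.07). KDR, the other main receptor, was near 0 in both clones with 11 and 5 reads.

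**Figure D5:**
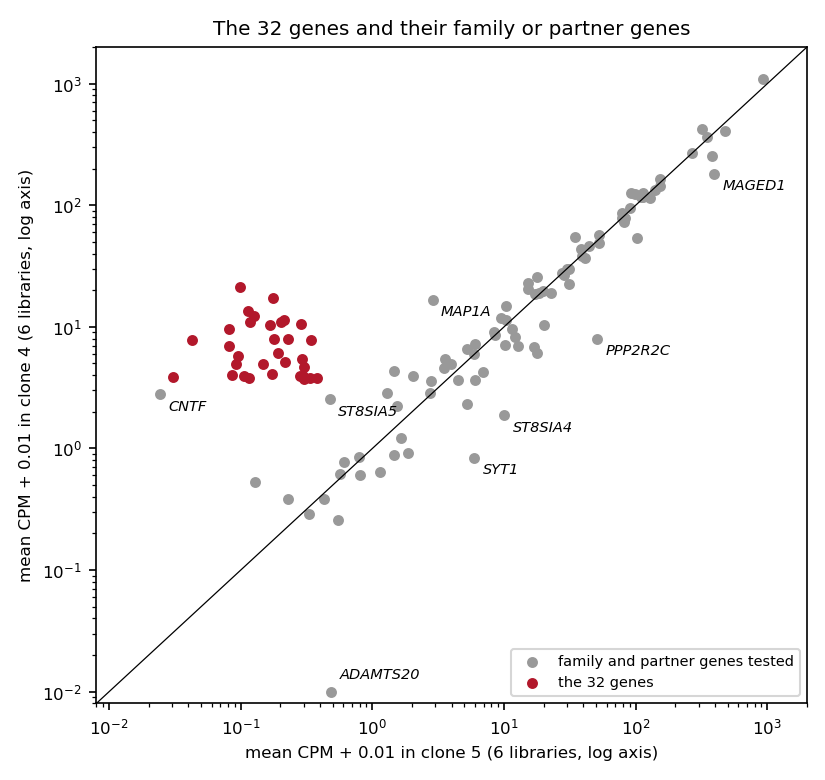
Mean CPM in clone 4 (vertical axis) against clone 5 (horizontal axis), both as CPM + 0.01 on log axes over 6 libraries, for the 32 genes (red) and the 89 tested relatives and partners (grey); the line marks equal levels. The red points stand apart because of the selection, and most grey points lie near the line, with PPP2R2C, ST8SIA4, SYT1 and MAGED1 below it and MAP1A, ST8SIA5 and CNTF above it.

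Wider families held genes that were higher and genes that were lower in clone 4. The lists were matched by the letters of gene symbols and not by function. Without the selected genes, 64 of 159 (40.3%) in the adhesion and synapse list were higher in clone 4 and 55 (34.6%) lower. Beside them stood NEGR1, NCAM2, SYT11 and the metalloprotease ADAMTS9. Among all genes tested other than the 32, 33.8% were higher and 32.8% lower. Of 303 genes in the transcription factor list 116 (38.3%) were higher and 114 (37.6%) lower, beside RUNX1T1, ETV1, PRDM16 and PRDM6. This list was meant to leave out zinc fingers but matched PRDM16, a zinc finger protein, and its relative PRDM6. Of 291 genes in the metabolic enzyme list 99 (34.0%) were higher and 89 (30.6%) lower, beside GALNT13, ST8SIA2 and CA8, which lacks carbonic anhydrase activity. Median log2 differences of these 3 lists were 0.08, 0.01 and 0.04, against 0.01 for all genes tested other than the 32. Of 1674 long noncoding RNAs by name, beside MAGI2-AS3, 140 (8.36%) were higher and 740 (44.2%) lower (median -0.37). Of 180 growth factors, cytokines and receptors, beside FLT1, 80 (44.4%) were higher and 44 (24.4%) lower (median 0.18). Of 471 genes in the zinc finger list, beside ZNF660, 119 (25.3%) were higher and 162 (34.4%) lower (median -0.05). That list did not match PRDM16, PRDM6 or ZBTB47. Of 480 kinases, phosphatases and GTPase regulators, beside PPP2R2B, 187 (39.0%) were higher and 166 (34.6%) lower. Of 239 cytoskeleton and matrix genes, beside MAP2 and, by the letters of its symbol, CCND2, 94 (39.3%) were higher and 68 (28.5%) lower. None of these shares was tested.

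The genes lay on 15 chromosomes. There were 5 on chromosome 3 (15.6%, against 5.82% of the genes at 3 CPM or more in all clone 4 libraries). Chromosome 8 held 4 (12.5% against 3.39%) and chromosome 21 held 2 (6.25% against 0.926%). Chromosomes 1, 2, 7 and X held 3 each (9.38%), against 9.92%, 6.77%, 4.67% and 3.45%. None of these shares was tested. No 2 of them lay within 1 Mb of each other, the closest being TOX and CA8 (1.07 Mb) and ZBTB47 and ZNF660 (1.92 Mb). The nearest tested gene on each side within 500 kb gave 45 neighbours, of which 17 (37.8%) were higher in clone 4, 17 (37.8%) lower and 11 not called. All genes tested other than the 32 were higher in 33.8% and lower in 32.8%. The neighbours furthest higher were PRDM16-DT, 1.5 kb from PRDM16 and with 85 reads in clone 4 and 0 in clone 5, and PAK3, 148.6 kb from CHRDL1, at 4.92 CPM in clone 4 and 1.28 CPM in clone 5. Furthest lower was PABPC1L2A, 132.8 kb from NAP1L2, at 0.143 CPM in clone 4 and 0.617 CPM in clone 5, followed by SLCO3A1 and APEX2. APEX2, 68.9 kb from TRO, was at 28.1 CPM in clone 4 and 66.5 CPM in clone 5, and SLCO3A1, 221.4 kb from ST8SIA2, at 2.85 CPM in clone 4 and 6.78 CPM in clone 5. Among genes that overlap one of the 32, MAGI2 was at 0.907 CPM in clone 4 and 1.86 CPM in clone 5 while MAGI2-AS3, which overlaps it, was not seen above 0.341 CPM in clone 5. ADAMTS9-AS1, antisense to ADAMTS9, had 65 reads in clone 4 and 3 in clone 5. The sources used here do not give the strand setting of the counting, so reads of overlapping genes cannot be told apart.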

How the data were processed

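Bulk RNA was sequenced in 12 of the 36 samples of the series, and the other 24 were not analysed here. Libraries were made from polyA-selected RNA at a sequencing service, per the labels' protocols. The authors deposited 1 table of raw counts, per the file headers. It covers 36601 genes, 4 summary entries and 22344 features for guides, and genes took 82.4 to 83.9% of all entries. The submitters' processing notes name GRCh38 and Cell Ranger 7 without saying whether they served the bulk libraries. The sources used here name no aligner and no strand setting.

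The 32 genes, the lists and the relatives were chosen with earlier results of these data known. Levels were computed as CPM over the gene rows. Tests on the counts used edgeR 4.0.16 in R 4.3.3 (filterByExpr by group, TMM, robust quasi-likelihood, 1 mean per group over 12 libraries, Benjamini-Hochberg over 14892 genes, threshold 0.05); SE is the absolute log2 fold change over the square root of F. DESeq2 1.42.0 and limma 3.58.1 (voom) were alternatives, with other limits, scalings and filters and each library left out. The fitting code was tested on simulated counts. Values are given per library for the 10 genes with the highest CPM, those past a threshold of a ligand response, those at the limits or the ends of the spread, and up to 3 per role group. RefSeq on GRCh38.p14 gave positions for 32 genes, matched by symbol or, for C2orf27A, by synonym. Nothing in the labels says whether replicates were grown apart, so the p-values reflect the spread among these libraries, which may be technical. Replicate counts differed by more than sampling noise (chi-square per degree of freedom 1.95 to 8.71). Intervals and floors cover counting error only.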

Additional observations from a re-analysis of the deposited data

Results flagged for a closer look

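For 2 genes the test of the difference between the clones' ligand responses was passed. Both entered the test through their clone 4 counts, and their clone 5 side rests on 21 and 22 reads. NCAM2 had a difference of 5.84 ± 0.97 on the log2 scale (SE, edgeR adjusted p = 0.00132), clone 4 response minus clone 5 response. In clone 4 it was at 5.10, 5.58 and 4.37 CPM with HyT36 and at 5.81, 4.31 and 4.65 CPM with DMSO, and in clone 5 it had 0 reads in all 3 HyT36 libraries and 9, 5 and 7 reads with DMSO. PPP2R2B had a difference of -2.69 ± 0.62 (edgeR adjusted p = 0.0408), with 9, 6 and 4 reads in clone 5 with HyT36 and 2, 1 and 0 with DMSO, and lost this call in 11 of 18 alternatives. In clone 4 neither gene passed the test of its own response. The clone 5 libraries, where the genes were selected to be low, held the epithelial list at 67.6 to 77.8 CPM with HyT36 and at 131 to 174 CPM with DMSO. Their part in these differences was not tested.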

How the results depend on the processing

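The number of genes selected followed its limits: 75 at a clone 4 minimum of 1 CPM, 15 at 5 CPM, 10 at a clone 5 maximum of 0.25 CPM and 60 at 1 CPM, and 32 to 34 without each library in turn. In clone 4, 0 of the 32 genes were called in every alternative run. All genes called there numbered 830, 52 against a fold of 1.2, 287 in the 6 libraries with few epithelial transcripts, 1177 in the 6 with many and 409 to 851 without each library. In clone 5, all genes called numbered 1219, 37 against a fold of 1.2 and 755 to 1618 without each library. Of the 32, 6 were called there, 2 by DESeq2, 2 without a filter, 3 by limma-voom, 1 against a fold of 1.2 and 2 to 6 without each library. In the clone 5 libraries alone 0 were called, and only 1 was tested. For the difference of responses the genes called numbered 45 in all, 169 without a filter, 7 against a fold of 1.2 and 25 to 140 without each library. Of the 32, 2 were called, 1 by DESeq2, 1 by limma-voom, 1 against a fold of 1.2 and 1 to 2 without each library. The cause of these moves was not tested.

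NCAM2 was called in 18 of 18 alternatives for both clone 5 and the difference. All of these kept clone 4 libraries in the fit. In the clone 5 libraries alone none of the 6 genes called in clone 5 passed the filter on low counts. That setting is therefore not among the 18. In clone 5 PPP2R2B was called in 15 of 18, MAGI2-AS3 and CA8 in 10 each, GALNT13 in 9 and RUNX1T1 in 6. PPP2R2B lost its call there without clone 5 HyT36 1 or DMSO 3. GALNT13 lost it without clone 5 HyT36 1 or 3 or any of the 3 DMSO libraries, MAGI2-AS3 without any HyT36 library or DMSO 1, and CA8 without HyT36 1 or 2 or DMSO 1 or 3. RUNX1T1 lost it without any clone 4 HyT36 library, clone 4 DMSO 3, clone 5 HyT36 2 or 3, or clone 5 DMSO 1 or 2. The difference of PPP2R2B was called in 7 of 18, with adjusted p (edgeR, DESeq2 or limma) from 0.0172 to 0.292. It lost its call without clone 4 HyT36 1 or 2, clone 4 DMSO 2 or 3, clone 5 HyT36 1 or 2, or clone 5 DMSO 2 or 3. Relatives higher in clone 4 numbered 36 to 39 and lower 27 to 30 without each library, and neighbours 15 to 17 and 15 to 19.

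Same-numbered libraries of the 2 treatments did not deviate together (correlations -0.54, -0.25 and -0.26 in clone 4, -0.03, -0.04 and -0.01 in clone 5). In clone 4, libraries of different number did. HyT36 1 deviated with DMSO 2 and 3 (0.37 and 0.42), and HyT36 2 and 3 with DMSO 1 (0.38 and 0.35). This grouping is that of few and many epithelial transcripts, and its part in the ligand responses was not tested. With the replicate number as a block, 0 of the 32 genes were called in clone 4, 5 in clone 5 and 2 for the difference, with 715, 1083 and 43 genes in all. Depth limits the clone 5 values, which lie under 0.5 CPM, or 11.4 to 14.3 reads per library.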
